A study of Mus musculus with 9 samples.

Results

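Small leucine-rich proteoglycans are secreted matrix proteins with a curved core of leucine-rich repeats, and most carry glycosaminoglycan chains of the chondroitin, dermatan or keratan sulfate kind. They bind collagen fibrils and set their diameter and spacing, and several also hold growth factors such as transforming growth factor beta in the matrix. The heart valve leaflet is built of collagen, proteoglycan and elastic layers made by valve interstitial cells, and these proteins belong to that fibrous matrix. The 10 genes described here are Bgn, Dcn, Aspn, Lum, Fmod, Prelp, Kera, Ogn, Epyc and Podn. They were read by the probe sets that the platform annotation assigns to 1 of these symbols alone: 10 probe sets, 1 for each gene, out of 23397 with a gene symbol among 28270 rows.

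Expression was profiled in aortic valves of C57BL/6J mouse pups at postnatal day 1, with the valves of 5 to 6 pups pooled for a sample and kept on floating filters for 48 hours. One group received all-trans retinoic acid (ATRA, dissolved in DMSO) at 1 µmol/L, the active vitamin A metabolite that switches on its nuclear receptors. Another received LE540, an antagonist of those receptors, whose dose and vehicle the labels do not give, and the controls received DMSO at 0.001%. All groups share the medium with 10% serum, so the controls are not free of retinoids by design, and each group has 3 pools on 3 arrays. The labels call the pools biological replicates, and the p-values measure the spread between these pools.

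The median intensity of an array was 123.61 to 128.13, and its lower quartile 57.7 to 63.0. The array of LE540 replicate 1 stood apart on the first principal component, at 63.7 against -21.5 to 13.9 for the other 8 arrays. Tgm2, a transglutaminase induced by retinoic acid, rose 5.00-fold with ATRA over DMSO (limma adjusted p = 0.000228). With LE540 over DMSO 0 of 5 measured retinoic acid targets passed, where 0.0299% of all probe sets did. Among these targets the log2 change was -0.57 in Rarb, the beta receptor gene (limma adjusted p = 0.719). In Dhrs3, a retinal reductase, it was -0.38 (adjusted p = 0.744). Mt2, a metallothionein listed with earlier results of these arrays known, rose 12.3-fold with LE540 over DMSO (adjusted p = 0.0917), which is no measure of receptor block. All 10 markers of valve interstitial cells were measured, and 9 of them lay above the array median on every array, the exception being Tcf21 on 8 of 9 arrays. Of 19 cardiomyocyte markers 13 lay above the median on every array as well, and a bulk sample cannot tell fewer cells of a type from less RNA per cell. Summed cardiomyocyte intensity ran from 14300 to 28500 in DMSO, 14000 to 23600 in ATRA and 13700 to 23900 in LE540 arrays.

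None of the 10 members passed in any of the 3 comparisons at the study's threshold, an adjusted p under 0.1 over all tested probe sets. Few probe sets passed at all: 0.0812% in ATRA vs DMSO, 0.0299% in LE540 vs DMSO and 0.603% in ATRA vs LE540. The member that separated the agents most was Ogn, which averaged 944 ± 742 with ATRA and 101 ± 70.5 with LE540 (SD, n = 3 arrays each), an 8.83-fold difference. It passed once the replicate number was taken as a block (limma adjusted p = 0.0537, against 0.179 without the block). In that blocked fit 0.945% of all probe sets passed, and with 1 array left out as well Ogn passed in 4 of 9 cases. Prelp followed, at 2.95-fold, and Dcn and Lum differed by 1.44-fold and 1.59-fold in the same direction without passing. Bgn, Fmod, Aspn, Podn, Kera and Epyc differed between the agents by at most 1.25-fold in either direction.

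**Figure D1:**
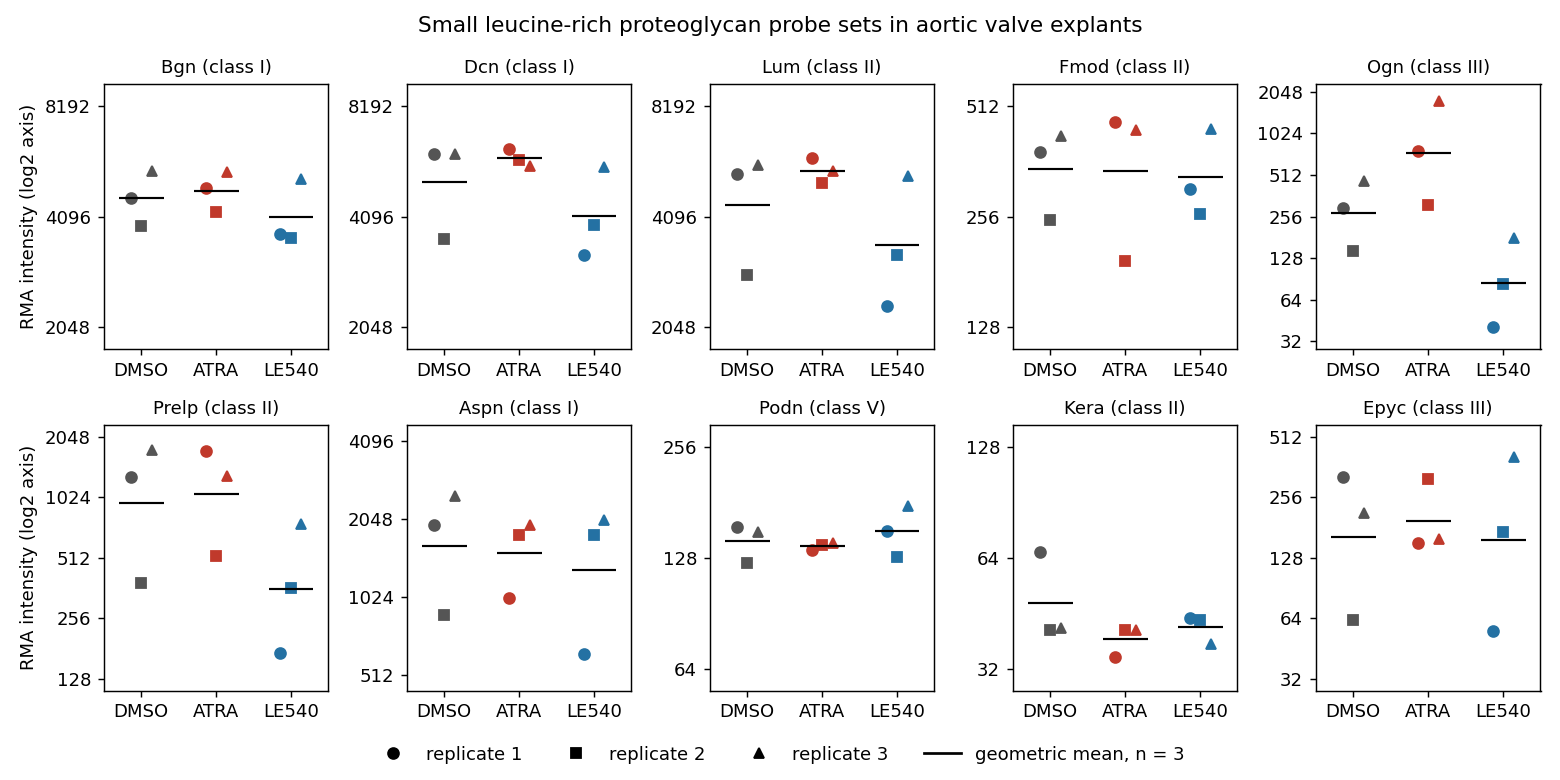
RMA intensity (log2 axis) of the 10 probe sets in the 9 arrays, grouped by treatment, with symbols for the replicate number and a line for the geometric mean of 3 arrays. In Ogn the 3 LE540 arrays (40.8 to 178) lie below the 3 ATRA arrays (308 to 1760), whereas in Podn all 9 arrays lie between 124 and 177.

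Ogn encodes osteoglycin, also called mimecan, a class III member that takes part in collagen fibril formation. It sits in a run of related genes on chromosome 13, with Ecm2, Aspn, Omd and Ogn as consecutive protein-coding genes of the RefSeq annotation (assembly GRCm38.p6). To show how the start regions of 2 members of that run differ, the 250 bases before the annotated start are printed for Ogn, which separated the agents, and Aspn, which did not. Both are on the plus strand, Ogn at chr13:49607765-49608014 and Aspn at chr13:49544193-49544442 of GRCm38.p6, from RefSeq. Capitals mark matches, on either strand, to the TATA box word (TATAAA), the TEAD factor word (GGAATG), the GC box word (GGGCGG) and 4 half-sites of retinoic acid receptors (AGGTCA; its variant AGTTCA; then GGGTCA; and also GGTTCA).
Ogn: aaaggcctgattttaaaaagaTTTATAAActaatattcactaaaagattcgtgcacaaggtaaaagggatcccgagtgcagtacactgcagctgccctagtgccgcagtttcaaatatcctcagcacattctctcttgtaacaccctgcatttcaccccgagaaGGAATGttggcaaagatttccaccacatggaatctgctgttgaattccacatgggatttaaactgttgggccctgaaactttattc
Aspn: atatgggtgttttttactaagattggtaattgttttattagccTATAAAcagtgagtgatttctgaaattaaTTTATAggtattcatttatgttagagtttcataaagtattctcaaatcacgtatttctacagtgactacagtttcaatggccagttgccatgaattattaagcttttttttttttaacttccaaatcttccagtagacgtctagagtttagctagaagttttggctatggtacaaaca

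The Ogn window holds TATAAA on both strands in overlapping positions, 229 to 222 bases before the start, and GGAATG from 86 to 81 bases before it. The Aspn window holds TATAAA once on each strand and none of the other words. Among 32851 windows of this length in the RefSeq table, TATAAA occurs in 12.4%, GGAATG in 12.6% and any of the 4 half-sites in 38.6%. Neither window holds a half-site, which says only that these letters are not in these 250 bases.

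With DMSO, Ogn read 296, 144 and 464 in replicates 1, 2 and 3. With ATRA it read 764, 308 and 1760. With LE540 it read 40.8, 82.8 and 178. All ATRA arrays were above all LE540 arrays, while the DMSO arrays overlapped both. The LE540 replicate 1 value lies under that array's lower quartile. No background reading came with these values, so the low end of the fold difference is uncertain.

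Ogn differed by 3.14 on the log2 scale between ATRA and LE540 (SE 0.73, 95% confidence interval 1.48 to 4.80, limma adjusted p = 0.179), from 2.52 without ATRA replicate 3 to 3.78 without ATRA replicate 2. With the replicate number as a block the difference had an SE of 0.42, an interval of 2.14 to 4.15 and an adjusted p of 0.0537. In that blocked fit 0.945% of all probe sets passed (221 of 23397), against 0.603% without the block (141). With 1 array left out as well, the blocked difference ran from 2.58 to 3.67 and passed in 4 of 9 cases. It did not pass without DMSO replicate 2 (adjusted p = 0.112) or 3 (0.121), ATRA replicate 1 (0.212) or 3 (0.19), or LE540 replicate 3 (0.113). It did pass with LE540 replicate 1, the array that stood apart, left out (adjusted p = 0.067).

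Against DMSO, Ogn was 2.75-fold higher with ATRA (log2 change 1.46, SE 0.73, interval -0.20 to 3.12, adjusted p = 0.999) and 3.21-fold lower with LE540 (log2 change -1.68, SE 0.73, interval -3.34 to -0.02, adjusted p = 0.561). These comparisons share the DMSO arrays. The ATRA change was 0.84 without ATRA replicate 3 and 2.10 without ATRA replicate 2, and over all 9 arrays left out in turn it ran from 0.84 to 2.10. That of LE540 ran from -2.22 to -1.16. Among arrays of equal number the ATRA to DMSO ratio was 2.58, 2.14 and 3.79 in numbers 1, 2 and 3, and the ATRA to LE540 ratio 18.8, 3.72 and 9.87.

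**Figure D2:**
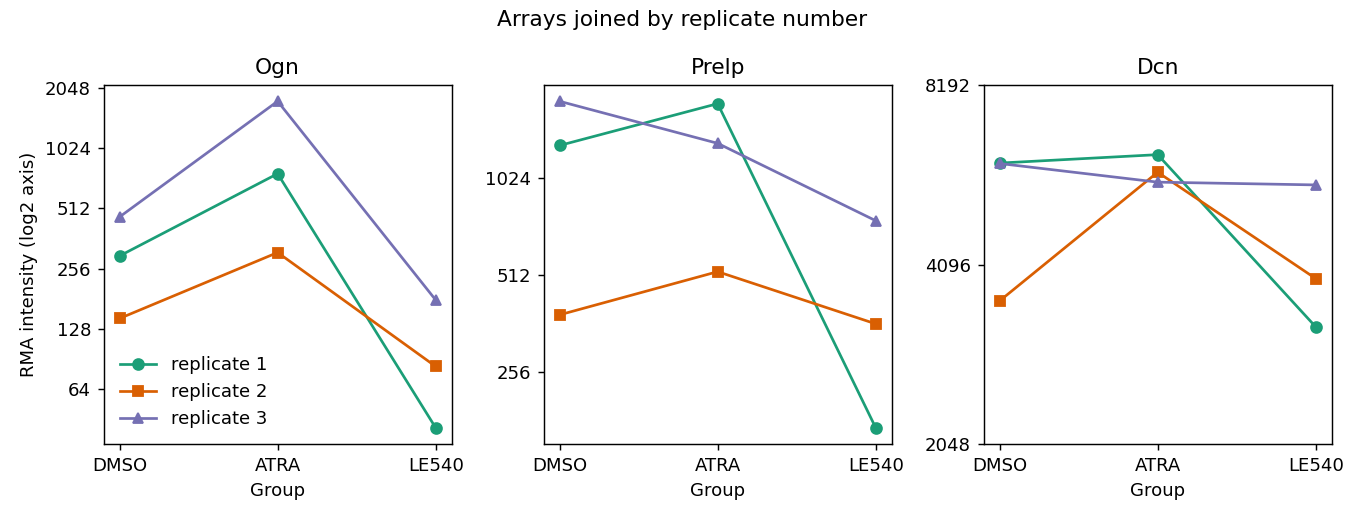
RMA intensity (log2 axis) of Ogn, Prelp and Dcn in DMSO, ATRA and LE540 arrays, with ATRA arrays joined by a line to the DMSO and LE540 arrays of the same replicate number. The 3 Ogn lines peak at ATRA, whereas in replicate 3 of Prelp and Dcn the ATRA array (1310 and 5630) lies below the DMSO array (1770 and 6050).

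Omd, next to Ogn on chromosome 13, and Ecm2, next to Aspn, were read by their own probe sets. Omd, or osteomodulin, a keratan sulfate carrier of bone and other mineralized tissue, read 63.4, 42.3 and 56.7 with DMSO, 74.5, 38.6 and 96.5 with ATRA and 34.4, 33.8 and 29.0 with LE540. Its LE540 arrays were below all others, at 0.72 log2 under DMSO (adjusted p = 0.556) and with ATRA 1.01 above LE540 (adjusted p = 0.32). Its probe set lay under the lower quartile in 6 of 9 arrays, so these levels are low and their signal over background is unknown. Ecm2, a matrix protein with leucine-rich repeats, read 163, 109 and 167 with DMSO, 79.6, 118 and 218 with ATRA and 23.9, 154 and 126 with LE540, so its low value rests on LE540 replicate 1.

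Aspn encodes asporin, a class I member that lacks the usual glycosaminoglycan site and has a stretch of aspartates. It read 1930, 872 and 2500 with DMSO, 1010, 1780 and 1930 with ATRA and 618, 1780 and 2020 with LE540. Every group overlapped the others, and the lowest arrays were DMSO replicate 2, ATRA replicate 1 and LE540 replicate 1 of their groups. The log2 changes were -0.09 with ATRA over DMSO (interval -1.29 to 1.1), -0.31 with LE540 over DMSO (-1.50 to 0.89) and 0.22 with ATRA over LE540 (-0.98 to 1.41). The difference between the changes of Aspn and Ogn was not tested.

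Prelp encodes a class II protein with an arginine- and proline-rich end that binds heparan sulfate and anchors basement membrane to collagen. It read 1290, 384 and 1770 with DMSO, 1740, 523 and 1310 with ATRA and 171, 360 and 753 with LE540. The groups overlapped in each comparison, since DMSO replicate 2 and ATRA replicate 2 lay within the LE540 range. With LE540 it was 2.67-fold lower than with DMSO (log2 change -1.42, SE 0.72, interval -3.05 to 0.21, adjusted p = 0.595) and 2.95-fold lower than with ATRA (ATRA minus LE540 1.56, SE 0.72, interval -0.07 to 3.19, adjusted p = 0.546). ATRA and DMSO differed by 0.15 (interval -1.48 to 1.78). Much of the LE540 difference lay in 1 array: without LE540 replicate 1 the change was -0.88 against DMSO (adjusted p = 0.891) and 1.03 between ATRA and LE540 (adjusted p = 0.808). Without DMSO replicate 2 the change of LE540 against DMSO was -2.08 (adjusted p = 0.596).

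Fmod lies next to Prelp among the protein-coding genes of chromosome 1, after Optc. The windows of both are printed because these neighbours also differed in how much they varied: Prelp at chr1:133921402-133921651 on the minus strand and Fmod at chr1:134037004-134037253 on the plus strand of GRCm38.p6, from RefSeq, with the same words in capitals.
Prelp: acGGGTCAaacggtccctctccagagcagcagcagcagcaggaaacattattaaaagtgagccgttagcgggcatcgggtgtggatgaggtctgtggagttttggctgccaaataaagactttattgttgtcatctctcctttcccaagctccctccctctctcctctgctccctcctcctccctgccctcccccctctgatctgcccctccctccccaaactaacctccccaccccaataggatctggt
Fmod: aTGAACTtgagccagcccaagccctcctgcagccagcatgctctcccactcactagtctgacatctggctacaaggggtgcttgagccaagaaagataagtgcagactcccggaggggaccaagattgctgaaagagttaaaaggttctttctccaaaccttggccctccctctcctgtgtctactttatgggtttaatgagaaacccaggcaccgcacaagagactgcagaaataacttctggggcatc

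Each window holds 1 half-site, GGGTCA in Prelp from 248 to 243 bases before the start and AGTTCA, on the other strand, in Fmod from 249 to 244. No member window held 2 half-sites on 1 strand at a spacing of 1, 2 or 5 bases, the spacings of retinoic acid response elements, and 0.426% of all windows did. Windows were found for 8 of the 10 members; Dcn and Lum had none in the table.

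Fmod, or fibromodulin, is a keratan sulfate carrier of class II that shapes collagen fibrils and their crosslinks. It read 383, 251 and 423 with DMSO, 462, 194 and 440 with ATRA and 305, 260 and 442 with LE540. Replicate 2 was the lowest array in all 3 groups. The log2 changes were -0.02 with ATRA over DMSO (interval -0.83 to 0.80), -0.07 with LE540 over DMSO (-0.89 to 0.74) and 0.06 with ATRA over LE540 (-0.76 to 0.87). These intervals ended short of the 2-fold change that the study used as a limit.

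Dcn encodes decorin, the class I collagen binder that also holds transforming growth factor beta, and Lum encodes lumican, a class II keratan sulfate carrier known from the transparent cornea. They are next to each other on chromosome 10, followed by Kera and Epyc. Dcn read 6060, 3560 and 6050 with DMSO, 6260, 5850 and 5630 with ATRA and 3220, 3880 and 5570 with LE540. Lum read 5360, 2840 and 5650 with DMSO, 5900, 5040 and 5440 with ATRA and 2340, 3220 and 5280 with LE540. Both genes were low in the same 3 arrays, LE540 replicate 1, DMSO replicate 2 and LE540 replicate 2, and near level in the other 6.

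The Dcn ATRA arrays lay just above the highest LE540 array, whereas those of Lum overlapped. Dcn and Ogn were the 2 of 10 members with all ATRA arrays above all LE540 arrays, an order found in 5.24% of all probe sets. ATRA exceeded LE540 by 0.52 in Dcn (SE 0.25, interval -0.04 to 1.09, adjusted p = 0.562) and by 0.67 in Lum (SE 0.33, interval -0.07 to 1.42, adjusted p = 0.574). Without LE540 replicate 1 these values were 0.35 and 0.40. Against DMSO, Dcn changed by 0.22 with ATRA and -0.30 with LE540, and Lum by 0.30 and -0.37. Without DMSO replicate 2 the ATRA values were -0.04 and -0.01, so that the positive sign rests on that 1 control array.

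Dcn and Lum followed each other closely. The root mean square difference between their 9 log2 values, each centred on its own mean, was 0.13. Of the 21779 other probe sets with 1 symbol, Lum was number 3 in closeness to Dcn and Dcn number 4 in closeness to Lum. This pair was singled out after its values were seen, and the arrays share their processing, so the closeness is a description.

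Kera, keratocan of the cornea, was low throughout, where signal over background is unknown. It read 66.5, 40.6 and 41.3 with DMSO, 34.3 to 40.6 with ATRA and 37.4 to 44.0 with LE540, under the lower quartile in 8 of 9 arrays. The 1 higher value was DMSO replicate 1, and its log2 change with ATRA over DMSO was -0.33 (interval -0.76 to 0.11) or -0.09 without that array.

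Epyc, or epiphycan, a dermatan sulfate carrier first known from growth plate cartilage, varied strongly inside each group. It read 324, 62.9 and 214 with DMSO, 152, 315 and 158 with ATRA and 55.2, 173 and 409 with LE540. The value of 55.2, in LE540 replicate 1, lies under that array's lower quartile, so the low end of this spread is uncertain. The group geometric means were nevertheless close, 163, 196 and 157, and the 95% intervals of its 3 log2 changes were wide: -1.51 to 2.04, -1.83 to 1.72 and -1.46 to 2.10 for ATRA over DMSO, LE540 over DMSO and ATRA over LE540. Its highest array in each group (DMSO replicate 1, ATRA replicate 2 and LE540 replicate 3) was also the array with the highest cardiomyocyte marker score in that group, at 0.49, 0.31 and 0.44. The score is the mean of 19 marker values on the log2 scale, each centred on its mean over the 9 arrays. With many pairs of member and marker list to compare, this match is only a description. A heart muscle source of the Epyc values was not tested. With that score as a covariate the Epyc changes were 0.80 (SE 0.47, adjusted p = 1), -0.40 (SE 0.46, adjusted p = 0.783) and 1.2 (SE 0.50, adjusted p = 0.486) for ATRA over DMSO, LE540 over DMSO and ATRA over LE540, against 0.26, -0.05 and 0.32 without it. Of 12 tendon and cartilage markers none passed in any comparison, where at most 0.603% of all probe sets did. Their medians were -0.02, 0.04 and 0.03 in the same order.

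Bgn, or biglycan, the class I relative of decorin that can also act on Toll-like receptors when released, was among the steadiest members. It read 4600, 3860 and 5460 with DMSO, 4890, 4210 and 5400 with ATRA and 3680, 3590 and 5190 with LE540, with overlap between all groups. Its log2 changes were 0.06 (SE 0.18), -0.17 and 0.23, with intervals of -0.35 to 0.48, -0.59 to 0.25 and -0.19 to 0.65 for ATRA over DMSO, LE540 over DMSO and ATRA over LE540.

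Podn, or podocan, of class V, is found in vessel walls and restrains smooth muscle cell growth. It read 155, 124 and 150 with DMSO, 134, 139 and 140 with ATRA and 151, 129 and 177 with LE540. Its 95% intervals lay within -0.44 and 0.40 on the log2 scale in the 3 comparisons, the narrowest of the 10 members, and its range over 9 arrays was 1.42-fold.

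**Figure D3:**
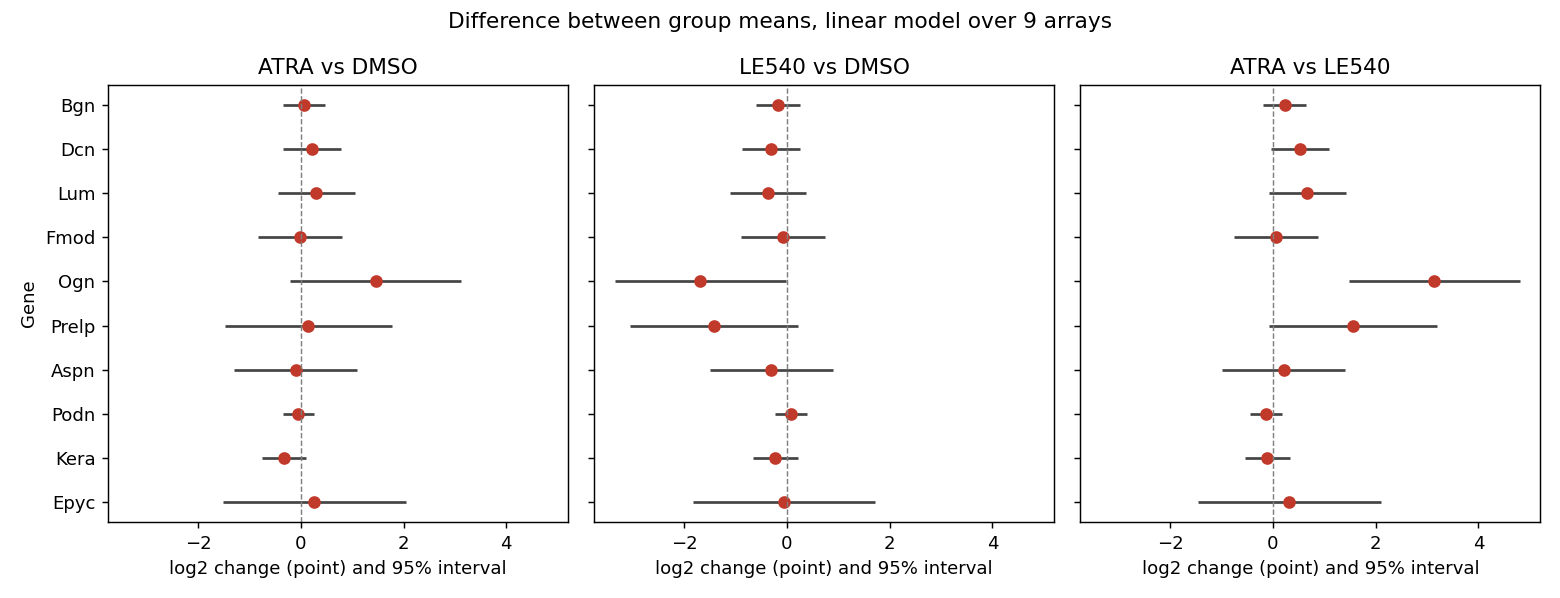
Log2 difference between group means (points) with 95% confidence intervals (lines) for the 10 members in 3 comparisons, from the linear model over 9 arrays. The interval of Ogn in ATRA vs LE540 (1.48 to 4.80) lies clear of 0, and its interval in LE540 vs DMSO ends at -0.02.

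The members varied unequally over the 9 arrays. The ratio of the highest to the lowest array was 43.2 for Ogn, 10.4 for Prelp, 7.40 for Epyc and 4.04 for Aspn, and between 1.42 and 2.52 for the other 6. On the log2 scale the Ogn range was 5.43, and the ranges of Prelp and Epyc were wider than those of 99.5% and 99.0% of all tested probe sets. The wide standard errors of these members (up to 0.78) compare with a median of 0.15 over all probe sets.

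In ATRA vs DMSO, 0 of 10 members passed, where 0.0812% of all probe sets did (19 of 23397, or 29 with the replicate block, 0.124%), and 0.0598% when a change over 2-fold was also required. In limma 0 members had an unadjusted p under 0.05, against 4.7% of all probe sets. Of the members 6 were higher, against 48.5% of all probe sets, with a median of 0.11 against -0.01. Without DMSO replicate 2 only 1 of 10 was higher and the median was -0.19.

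In LE540 vs DMSO, 0 of 10 passed, where 0.0299% of all probe sets did (7 of 23397, all over 2-fold) and 0.00427% with the replicate block. In limma 1 member (Ogn, lower) had an unadjusted p under 0.05, against 8.8% of all probe sets. Of the members 9 were lower and Podn was higher, with a median of -0.26, while 54.7% of all probe sets were higher and their median was 0.02. Without LE540 replicate 1 the members' median was -0.09 with 7 lower, and without DMSO replicate 2 it was -0.62 with 10 lower. In both comparisons with DMSO 0 members had groups that did not overlap, against 11.3% and 12.6% of all probe sets in either direction.

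In ATRA vs LE540, 0 of 10 passed without the block, where 0.603% of all probe sets did, or 0.419% with over 2-fold also required. Of the members 8 were higher, with a median of 0.28, against 43.1% of all probe sets higher and a median of -0.03. Without LE540 replicate 1 the median was 0.08 with 6 higher. In limma, 1 member (Ogn, higher) had an unadjusted p under 0.05, against 9.54% of all probe sets, and 2 had groups that did not overlap, against 11.5% in either direction. Arrays of equal number ran in the order ATRA over LE540 in every number for 5 members, Bgn, Dcn, Lum, Ogn and Prelp, and for 13.5% of all probe sets. In number 3 that order was close to a tie for Bgn, Dcn and Lum, with log2 differences of 0.06, 0.02 and 0.04. The group means of 6 members ran in the order ATRA, DMSO, LE540, against 14.9% of all probe sets.

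**Figure D4:**
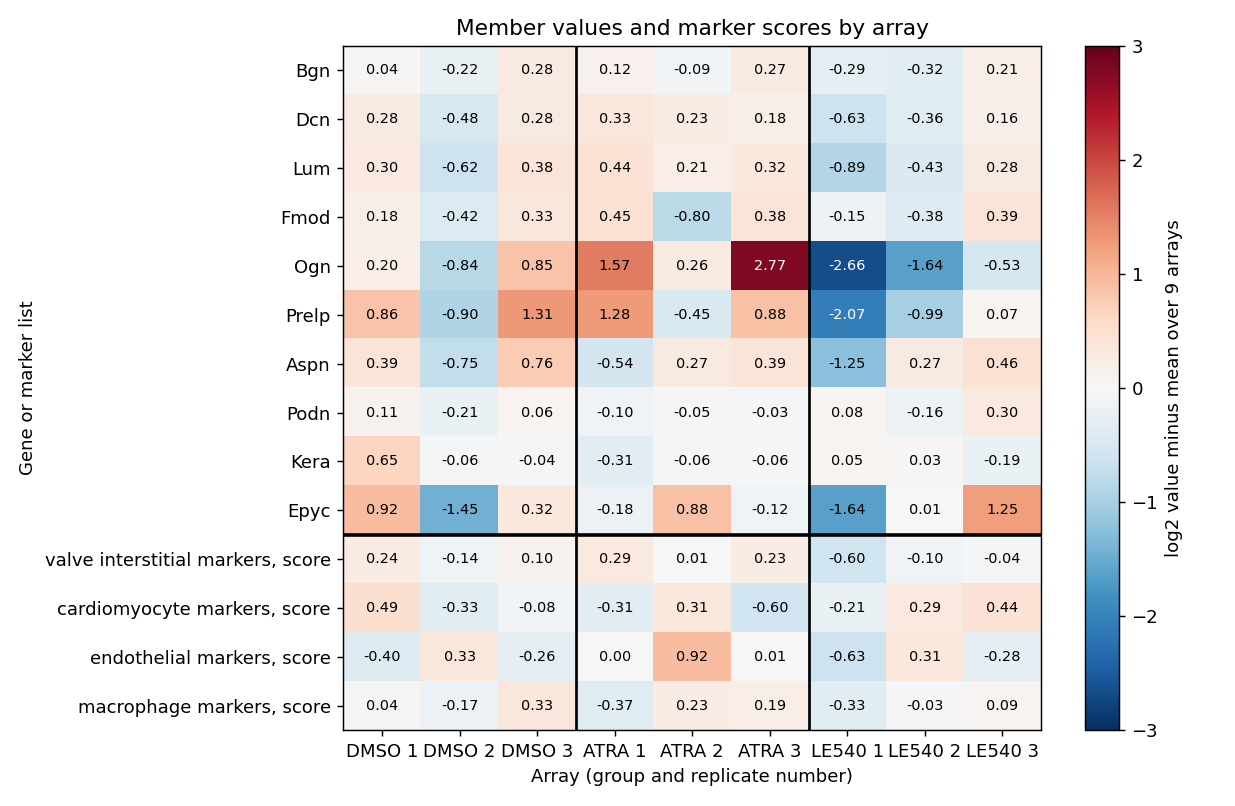
Log2 values minus the mean over 9 arrays for the 10 members, and scores (mean of such values) for 4 marker lists, by array. DMSO replicate 2 is below the mean in 10 of 10 members, LE540 replicate 1 in 8 of 10, and the valve interstitial score is lowest in LE540 replicate 1 at -0.60. The shares of all probe sets below their means in these arrays were not computed.

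Single arrays lay low or high for many members at once. The shares of all probe sets doing so were not computed, so the counts that follow may not be particular to the members. DMSO replicate 2 lay below the 9-array mean for 10 of 10 members and DMSO replicate 1 above it for 10 of 10. LE540 replicate 1 was the lowest of 9 arrays for 6 of 10. In the same array the valve interstitial marker score was -0.60, against -0.14 to 0.29 in the other 8, and the summed intensity of those 10 markers 8780, against 12500 to 15800. By group that sum ran from 13300 to 14500 in DMSO, 14700 to 15800 in ATRA and 8780 to 13500 in LE540 arrays. Of these 10 markers 8 were higher with ATRA than with LE540 and 2 were lower (median 0.33, 0 passed), against 43.1% of all probe sets higher and 0.603% passing. Pdgfra, a receptor of mesenchymal cells, was the marker with the largest change and does not stand for the list. It read 202, 473 and 688 with LE540 and 1540, 1880 and 1380 with ATRA (ATRA minus LE540 1.98, limma adjusted p = 0.176).

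Among markers of endothelial, smooth muscle, macrophage and heart muscle cells 0 passed in any comparison, where at most 0.603% of all probe sets did. Of all probe sets 43.1% were higher with ATRA than with LE540 and 48.5% higher than with DMSO. Endothelial markers were higher with ATRA in 15 of 15 against LE540 (median 0.34) and 14 of 15 against DMSO (median 0.30). Smooth muscle markers were higher with ATRA in 7 of 8 against LE540 (median 0.22) and in 7 of 8 against DMSO (median 0.25). Macrophage markers were higher in 8 of 13 against LE540 and 5 of 13 against DMSO, and cardiomyocyte markers in 3 and 5 of 19. Endothelial markers (15 measured) summed to 2690 to 4660 in DMSO, 3450 to 7380 in ATRA and 2240 to 4500 in LE540 arrays, macrophage markers (13) to 2310 to 4660, 2210 to 3810 and 2840 to 3770, and smooth muscle markers (8) to 2140 to 3960, 3740 to 7280 and 2110 to 3230. No marker was listed at 0. The part of the endothelial, macrophage and smooth muscle cells in the members' values was not tested. With the cardiomyocyte score as a covariate Ogn differed by 3.09 between ATRA and LE540 (SE 0.85, adjusted p = 0.319).

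Y-linked genes, a sign of the unknown sex mix of the pools, summed to 110 to 613 in DMSO, 533 to 1410 in ATRA and 213 to 1330 in LE540 arrays. With their score as a covariate Ogn differed by 2.86 between ATRA and LE540 (adjusted p = 0.201), by -2.31 between LE540 and DMSO (adjusted p = 0.357) and by 0.55 between ATRA and DMSO (adjusted p = 1). With that covariate 9 of 10 members were lower with ATRA than with DMSO, with a median of -0.25, and Prelp stood at -0.82. The share of all probe sets lower in that fit was not computed. The score was -1.08, -2.5 and 0.16 in DMSO replicates 1 to 3 and 1.33, -0.03 and 1.35 in ATRA replicates 1 to 3. It was thus mostly higher with ATRA, so the sex mix and the treatment cannot be told apart here.

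The genes that build, bind or cut these proteoglycans were read from 7 lists of 95 measured genes. None of the 95 passed in ATRA vs DMSO or LE540 vs DMSO, where 0.0812% and 0.0299% of all probe sets did, and 5 rose with ATRA relative to LE540, where 0.603% of all probe sets passed. In the lists that follow, the share of all probe sets higher with ATRA than with LE540 was 43.1%, with a median of -0.03. Among the relatives of the family (8 measured, 0 passed) Omd and Ecm2 showed the largest changes, and Nepn was under the lower quartile on every array. Enzymes of chondroitin and dermatan sulfate synthesis had 16 of 22 members higher with ATRA than with LE540 (median 0.15, 0 passed). In that list Chst11, which sulfates chondroitin, was 2.30-fold higher with ATRA (adjusted p = 0.179).

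Keratan sulfate enzymes had 7 of 11 members higher with ATRA than with LE540 (median 0.05, 1 passed), against 0.603% of all probe sets passing and 43.1% higher. Chst1, the sulfotransferase that adds sulfate to keratan chains, read 504, 595 and 644 with ATRA and 302, 336 and 254 with LE540, a 1.95-fold rise (adjusted p = 0.0764), and its DMSO arrays (238, 294 and 351) overlapped those of LE540. Collagens that these proteoglycans bind had 10 of 11 members higher in ATRA vs DMSO (median 0.09; 48.5% of all probe sets were higher) and 8 of 11 in ATRA vs LE540 (median 0.13), with 0 passing. Col14a1, a fibril-surface collagen, was 0.89 log2 higher with ATRA than with DMSO (adjusted p = 0.695).

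The list of proteases that process or degrade the family also held the enhancer proteins Pcolce and Pcolce2, which are not proteases. In this list 16 of 17 members were higher with ATRA than with LE540 (median 0.30, 1 passed). Of all probe sets 0.603% passed and 43.1% were higher. Htra1, a secreted serine protease that can cut decorin and biglycan, read 2430, 2550 and 2840 with ATRA and 739, 1170 and 997 with LE540, a 2.73-fold rise (adjusted p = 0.015). Its DMSO arrays lay between them, at 1720, 1520 and 1730, with 0.65 log2 below ATRA (adjusted p = 0.636) and 0.80 above LE540 (adjusted p = 0.316). Partners in signalling had 14 of 20 members higher (median 0.10, 2 passed), beside the same 43.1% and 0.603% of all probe sets. Tgfb3, a ligand of the transforming growth factor beta family that decorin binds, rose 4.19-fold from 120 ± 32.9 to 492 ± 55.2 (SD, 3 arrays each, adjusted p = 0.00791). Bmp2, a bone morphogenetic protein, rose 3.01-fold (adjusted p = 0.0456).

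Vcan, or versican, the large hyaluronan-binding proteoglycan of valves, was the 1 of 6 large proteoglycans that passed, against 0.603% of all probe sets. It read 3700, 2040 and 2410 with ATRA, 1050, 1220 and 973 with LE540 and 1330, 1640 and 1260 with DMSO, with no overlap between groups, a 2.44-fold rise from LE540 to ATRA (adjusted p = 0.0608). None of the 10 small members passed in the comparison in which Vcan did, but no test set the small members against Vcan.

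The probe sets with array profiles most like the 3 most variable members were sought among 11630 single-symbol probe sets above the median, by the root mean square difference of centred log2 values over 9 arrays. For Ogn, whose own root mean square deviation was 1.55, the nearest were Fgl2 (0.61), a fibrinogen-like protein, Clca3a1 (0.67) and Clca3a2 (0.68). Clca3a1 and Clca3a2 are close paralogues whose probes may share signal. For Prelp (own deviation 1.11) they were Ctnnal1 (0.31), a catenin-like protein, Clca3a1 (0.38) and Fat4 (0.44), a giant cadherin. For Epyc (0.95) they were Trdn (0.45), the triadin of the muscle calcium store, Arhgef6 (0.46) and Abi3bp (0.47). Ogn and Prelp thus shared Clca3a1, which read 1.82 log2 higher with ATRA than with LE540.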

How the data were processed

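The authors deposited 1 intensity per probe set and array, on a linear scale (4.09 to 17798.2). Per the submitters' processing notes they were made in Affymetrix Expression Console 1.1 by RMA, which corrects background, quantile-normalizes and summarizes probes. Annotation and genome build of that step are not given in the sources used here. Probe sets were named from the platform annotation: 21780 had 1 symbol, 1617 several and 4873 none. From there, log2 was taken and a linear model with 3 groups over 9 arrays was fitted with limma 3.58.1 in R 4.3.3 (6 residual and 2.72 prior degrees of freedom), two-sided, with Benjamini-Hochberg adjustment over 23397 probe sets. The thresholds of the design text were used: adjusted p under 0.1, with fold change over 2 as a further limit. The fit was tested on simulated data. Precision is limited by 3 arrays per group. No 2 arrays held identical values.

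Same-numbered arrays were checked for shared deviations from their group means. Between ATRA and DMSO the correlations were 0.143, 0.342 and 0.22 for numbers 1 to 3. Between ATRA and LE540 they were 0.261, 0.282 and 0.269. Each exceeded 0.1, and a fit with the number as a block is given beside the main fit. The main fit had no block, because the labels state no pairing. Its SEs, intervals and adjusted p-values therefore count these shared deviations as part of the spread within groups, whereas the block removes them. Between LE540 and DMSO the correlations were 0.00946, 0.215 and 0.126, and the arrays share only a number.

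The members and lists were chosen with earlier results of these data known. Named genes are all members; of each other list up to 2 passing members or else the 1 with the largest change in a comparison, each gene by its brightest probe set; responders to each agent; and the 3 nearest profiles of the 3 most variable members. Wisp1 was listed as a partner under its older and newer symbol. List genes without a single-symbol probe set were not analysed here. Markers of adipocytes (6 measured), Schwann cells and melanocytes (7) and red cells (2) had 0 passing in each comparison, and of 8 mesothelial and epithelial markers Krt18 passed in both comparisons of ATRA. At most 0.603% of all probe sets passed in a comparison.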

Additional observations from a re-analysis of the deposited data

How the results depend on the processing

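No member passed under any of 22 alternatives in ATRA vs DMSO or LE540 vs DMSO, and in ATRA vs LE540 only Ogn did, with the replicate block (1 member). With the block and arrays left out, chosen after seeing the data, the member count ran from 0 to 1; Ogn had an adjusted p of 0.229, 0.0519 and 0.291 without replicate 1, 2 or 3 in every group. The Ogn difference kept its sign under all 22 alternatives in each comparison (2.52 to 3.78 in ATRA vs LE540, adjusted p 0.0537 to 0.525). The replicate block changed no other member's call. The counts over all probe sets moved more. In ATRA vs DMSO 19 became 9 with only the 6 arrays compared, 29 with the block, 10 above the median, 1 without variance moderation, 71 with array weights, 8 at 0.05, 7 with the Y-linked and 6 with the cardiomyocyte score, and 4 to 22 with 1 array left out. In LE540 vs DMSO 7 became 1 with the 6 arrays or the block, 0 after quantile normalization, with all rows, without moderation, at 0.05 or with the cardiomyocyte score, and 0 to 297 with 1 array left out (297 without LE540 replicate 3). In ATRA vs LE540 141 became 25 with the 6 arrays, 221 with the block, 7 without moderation, 60 at 0.05 or with the cardiomyocyte score, and 54 to 278 with 1 array left out. The cause was not tested.

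Of 30 member changes 16 turned sign under at least 1 alternative, none of them called. In ATRA vs DMSO these were, with the Y-linked score, Bgn -0.25, Dcn -0.07, Lum -0.09, Prelp -0.82 and Epyc -0.04; Prelp -0.11 with array weights; Fmod 0.01 after quantile normalization; and Aspn 0.14 with the cardiomyocyte score. In LE540 vs DMSO Epyc was 0.15 with array weights and Podn -0.06 with the Y-linked score. In ATRA vs LE540 Epyc was -0.09 with array weights, and Fmod -0.14 with the Y-linked and -0.05 with the cardiomyocyte score. With 1 array left out the ranges in ATRA vs DMSO were Aspn -0.54 to 0.22, Bgn -0.06 to 0.19, Dcn -0.04 to 0.35, Epyc -0.42 to 0.76, Fmod -0.24 to 0.39, Lum -0.01 to 0.48, Podn -0.14 to 0.01 and Prelp -0.51 to 0.66. In LE540 vs DMSO they were Aspn -0.75 to 0.23, Epyc -0.74 to 0.70, Fmod -0.30 to 0.09, Kera -0.34 to 0.02 and Podn -0.03 to 0.20, and in ATRA vs LE540 Aspn -0.32 to 0.53, Epyc -0.44 to 1.01 and Fmod -0.16 to 0.46. The dimmest values, those of Kera and those of Ogn and Epyc in LE540 replicate 1, lie where signal over background is unknown.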
